A study of Mus musculus with 2 samples.

Results

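Distal sites of open chromatin can lie close together, and the regions examined here are the densest groups of such sites that both peak lists had in common. They were chosen by a rule on peak positions in both lists: control peaks more than 1 kb from any annotated start site and sharing 1 bp or more with a peak of the Taf4-inactivated list (hereafter shared distal peaks) were joined where at most 12.5 kb separated them, and a joined region with 5 or more peaks was kept as a dense cluster. Of 19207 joined regions, 304 were dense clusters. They held 1738 of the 27281 shared distal peaks, or 6.37% (exact Clopper-Pearson 95% interval 6.08 to 6.67%, counting error only, as for all intervals below). Since the clusters were selected on the number and overlap of peaks in these libraries, their peak numbers and widths are descriptions and were not tested.

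Regulatory DNA away from gene starts, such as enhancers, binds transcription factors and acts on promoters over a distance. Genes with a central role in the identity of a cell are often flanked by several such elements in a row. The join distance is the one widely used to stitch enhancers together, but the clusters were not ranked by signal and are therefore not super-enhancer calls. In the intestinal epithelium, elements of this kind are bound by factors such as HNF4, CDX2, GATA and, downstream of Wnt signals, TCF proteins.

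The assay was ATAC-seq, which marks open DNA by letting a transposase cut it and add adapters, and the cells were enteroids, epithelial cultures grown from ileal crypts of 4-month-old C57Bl6/129sv mice. Control enteroids were labelled WT and, per the study's methods, carried Taf4 lox/lox alleles without Cre, and Taf4-inactivated enteroids carried Taf4 lox/lox::VilCreERT2, in which the villin promoter drives an inducible Cre in the epithelium. Both were treated with 1 µM 4-hydroxytamoxifen (4-OHT) for 3 days. Taf4 encodes a subunit of TFIID, the complex that recognizes core promoters, and the question behind the comparison is how the accessible genome looks soon after its loss. There was 1 library per genotype, so every difference below describes these 2 libraries, with no replicate spread to hold it against.

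The control list held 90445 peaks and the Taf4-inactivated list 71282, a ratio of 1.27. From the authors' fold and p-values, the background level was solved as 12.1 reads in control and 7.35 reads in Taf4-inactivated enteroids, or 60.5% of control. Shallower libraries yield fewer and narrower peaks, and depth cannot be told apart from genotype here. Of 10 epithelial markers, 10 had an open start site in each list, while the 4 endothelial markers had 2 in control and 1 in Taf4-inactivated enteroids and the 9 annotated blood cell markers had 3 and 2. Mesenchymal markers had 5 and 6 of 11, enteric neuron and glia markers 5 and 4 of 6, and liver and muscle markers 2 and 2 of 4. Start site peaks thus lay at all epithelial markers and at part of the markers of every other cell type. Of all coding genes 62.7% had one in both lists, so such a peak alone did not identify a cell type. Of all these markers, Krt8, Krt18 and Cdh17, each epithelial, were linked to a dense cluster.

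The sequences below are the centres of the strongest peaks in the clusters with the most peaks, each 200 bp around the centre of the shared distal peak with the highest fold, from the plus strand of the mm9 reference. Elf3 and Hes1 were added after their values had been seen, because they encode transcription factors of the intestinal epithelium. Capitals mark matches to the recognition sequences described further on, and a match is a description of the letters only. None of these windows overlapped an annotated exon.
Gm15319: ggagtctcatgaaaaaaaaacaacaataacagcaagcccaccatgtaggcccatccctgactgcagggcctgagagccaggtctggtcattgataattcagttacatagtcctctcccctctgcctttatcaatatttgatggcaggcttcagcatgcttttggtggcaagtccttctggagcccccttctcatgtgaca
C130026I21Rik: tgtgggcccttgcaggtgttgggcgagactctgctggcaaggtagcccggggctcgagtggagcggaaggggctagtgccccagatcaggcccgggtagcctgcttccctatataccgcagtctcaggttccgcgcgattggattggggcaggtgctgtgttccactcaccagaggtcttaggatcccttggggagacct
Tmprss2: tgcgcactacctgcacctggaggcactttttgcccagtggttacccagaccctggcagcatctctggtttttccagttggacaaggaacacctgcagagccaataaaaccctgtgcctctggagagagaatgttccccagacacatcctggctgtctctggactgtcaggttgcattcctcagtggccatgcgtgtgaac
Rhpn2: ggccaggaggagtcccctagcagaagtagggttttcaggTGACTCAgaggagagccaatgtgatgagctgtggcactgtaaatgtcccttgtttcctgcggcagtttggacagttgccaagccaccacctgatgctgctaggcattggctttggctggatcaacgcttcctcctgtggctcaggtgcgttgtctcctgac
Gm13145: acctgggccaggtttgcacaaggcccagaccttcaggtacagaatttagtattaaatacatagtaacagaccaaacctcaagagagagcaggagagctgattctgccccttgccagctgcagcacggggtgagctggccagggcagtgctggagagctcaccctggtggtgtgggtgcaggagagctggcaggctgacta
1700001C19Rik: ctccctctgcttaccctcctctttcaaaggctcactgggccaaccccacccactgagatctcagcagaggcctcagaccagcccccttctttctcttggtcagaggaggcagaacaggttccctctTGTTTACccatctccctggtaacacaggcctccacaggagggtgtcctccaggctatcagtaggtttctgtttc
Elf3: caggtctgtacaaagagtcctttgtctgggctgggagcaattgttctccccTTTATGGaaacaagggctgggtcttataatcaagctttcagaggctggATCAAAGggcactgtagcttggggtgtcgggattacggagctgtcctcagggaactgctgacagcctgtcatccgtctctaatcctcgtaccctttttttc
Hes1: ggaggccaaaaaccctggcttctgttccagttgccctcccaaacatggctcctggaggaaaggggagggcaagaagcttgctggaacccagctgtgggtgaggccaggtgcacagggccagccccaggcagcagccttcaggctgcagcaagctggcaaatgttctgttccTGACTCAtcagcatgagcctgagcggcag

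These windows lay at chr8:19963495-19963694, chr1:85336598-85336797, chr16:97854536-97854735, chr7:36126413-36126612, chr4:146778752-146778951, chr17:47621428-47621627, chr1:137095814-137096013 and chr16:30034119-30034318, in the same order. The Rhpn2 window, in an intron of that gene, and the Hes1 window each held the AP-1 sequence TGACTCA. The 1700001C19Rik window held the FOXA sequence TGTTTAC, and the Elf3 window held both the CDX sequence TTTATGG and the TCF sequence ATCAAAG. The windows of Gm15319, C130026I21Rik, Tmprss2 and Gm13145 held none of the sequences searched. A window at Ets2, read along with those of Elf3 and Hes1 but not printed, held none either.

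Most joined regions were single peaks, and clusters became rare quickly with size. There were 14114 regions of 1 peak, 4789 of 2 to 4 and 304 of 5 or more. At the threshold, 389 regions held exactly 4 peaks and 177 exactly 5. Regions just outside had a median span of 22278 bp and those just inside 29866 bp. The 4-peak regions held 4.73 control and 4.51 Taf4-inactivated peaks on average and the 5-peak regions 5.99 and 5.68, so that control was slightly higher on both sides of the threshold.

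**Figure D1:**
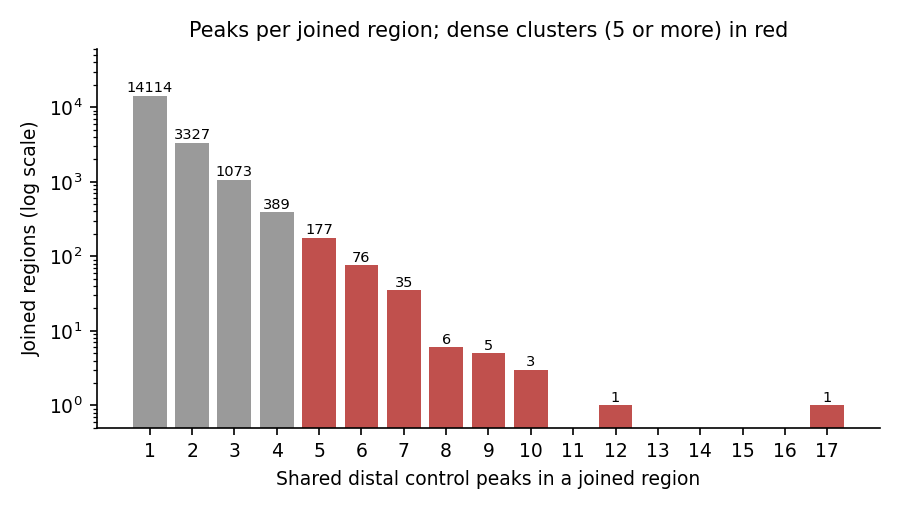
Number of joined regions (y axis, log scale) by the number of shared distal control peaks they hold (x axis). The count falls from 14114 regions with 1 peak to 177 with 5, and a single region holds 17; the 304 dense clusters are the red bars.

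The dense clusters spanned 9229 to 77961 bp, with a median of 32789 bp, and 10198 kb in all. Inside them, neighbouring shared distal peaks were separated by 803 to 12485 bp (median 5799 bp), against a median of 26886 bp between all consecutive shared distal peaks. In 72 clusters the next shared distal peak lay within 15 kb of an edge, so that a slightly longer join distance would have lengthened them. Chromosomes 15 and 7 held 26 clusters each. Clusters took up 12.3% of the shared distal peaks of chromosome 15, 9.20% on chromosome 16 and 9.12% on chromosome 8, but 2.15% on chromosome 3, where there were 4 clusters.

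The cluster with the most peaks lay at Gm15319 (chr8:19917944-19984855) and held 17 shared distal peaks. Its peaks were among the few with near-identical copies elsewhere in the genome: 13 of the 17 had another place in the reference with at least 95% identity over at least 90% of the peak. The next, beside C130026I21Rik (chr1:85276305-85336980), held 12 such peaks, and 12 had a copy. In 6 of the 304 clusters most peaks had a copy, and these were Gm15319, both clusters nearest to C130026I21Rik, Sp140, A530032D15Rik and Gm2964. Over all clusters 48 peaks (2.76%) had a copy, against 71 (0.278%) of the 25543 shared distal peaks outside clusters. The search found the own place of all 1738 cluster peaks, but of 25453 of those outside. Copies of the rest could have been missed. The reads were kept where they mapped uniquely, and the part of copies in the size of these 6 clusters was not tested. The other 298 clusters held 1994 control and 1911 Taf4-inactivated peaks.

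Among clusters with no copied peak, the Tmprss2 and Rhpn2 clusters held the most shared distal peaks, 10 each. The first lay outside coding genes next to Tmprss2, which encodes a serine protease of epithelial surfaces. It spanned chr16:97841964-97919924 (77961 bp), the longest of all, and its edge was 9162 bp from the start of Tmprss2. The span held 13 control peaks and 12 Taf4-inactivated peaks, of which 3 and 2 had no partner in the other list. Control peaks covered 7021 bp and Taf4-inactivated peaks 6123 bp, a log2 ratio of 0.20. Among its 10 shared peaks, 5 were wider in control and 5 narrower, and their folds in control ran from 2.02 to 3.06.

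The Rhpn2 cluster (chr7:36104871-36168489) ran from upstream into Rhpn2, and 7 of its 10 shared peaks were intronic. It held 13 control and 12 Taf4-inactivated peaks and the lengths covered were 7838 and 7529 bp. With peaks counted whole past the span's edges they were 7838 and 7943 bp, so the order turned. At Heg1 (chr16:33733779-33777746), which encodes a membrane protein of cell junctions, both lists had 10 peaks, but the Taf4-inactivated peaks covered more, 7161 bp against 5828 bp in control. Gm13145 (chr4:146772686-146811407) also had 10 peaks in both lists, with the opposite order, 11901 control and 7708 Taf4-inactivated bp. Its widest control peak measured 4584 bp and its widest partner 1758 bp. Gm16387 had 10 and 10 peaks over 13283 and 9801 bp, and Prl2c2, a prolactin family gene 72962 bp away from its cluster, 11 and 10 peaks over 13220 and 7111 bp.

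Ets2, which encodes an ETS transcription factor, was the nearest coding gene of 2 clusters. The first (chr16:95869707-95922126) ended 1556 bp from an annotated start of Ets2 and held 10 peaks in each list. Taf4-inactivated peaks covered 8648 bp and control peaks 7236 bp. Of its 9 shared peaks 4 were wider and 5 narrower in control, and the peak with the highest fold, 2.64, stood at percentile 91.4 of the control list and had a partner at percentile 92.3 of the other list. The second (chr16:96032762-96060798) lay 95301 bp from the nearest Ets2 start, with 7 control peaks over 4373 bp and 6 Taf4-inactivated peaks over 3892 bp. The pair thus pointed in opposite directions for covered length.

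The cluster at 1700001C19Rik (chr17:47560799-47632017) held 12 control and 14 Taf4-inactivated peaks, with 2 control peaks and 4 Taf4-inactivated peaks lacking a partner. Its span also overlapped the body of Taf8, which encodes another TFIID subunit, and of AI661453. Control peaks covered 8774 bp and Taf4-inactivated peaks 9162 bp. The start of Taf8 itself lay outside the span.

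In all clusters together 2054 control and 1968 Taf4-inactivated peaks were found, a difference of 86 and a ratio of 1.04, beside 1.27 for the whole lists. The rule requires a partner for each of the 1738 peaks that define the clusters, so near-equal numbers were partly built in. More control peaks were found in 112 clusters (36.8%), equal numbers in 123 (40.5%) and more Taf4-inactivated peaks in 69 (22.7%). Over all joined regions control had more peaks in 5.55% and the Taf4-inactivated list in 3.88%, but regions of a single peak were almost always equal (99.2%). Among regions of 2 to 4 peaks the shares were 19.9 and 11.9%. Regions with more control peaks thus outnumbered the others in both size classes above 1 peak, and nothing particular to dense clusters can be read from it. The sign of the difference of 86 peaks was not stable, since it became -25 with lists of equal length, -11 with peaks of a −log10 q of at least 2, -4 with an overlap of 50% of both peaks and -5 in the 16 clusters of 8 or more peaks.

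Peaks without a partner made up 247 of the control peaks (12.03%) and 168 of the Taf4-inactivated peaks (8.54%) in the clusters. The shares were 9.43 and 6.39% in regions of 2 to 4 peaks and 5.04 and 3.37% over all joined regions. By the rule, regions of 1 peak held none. Of the 304 clusters 86 had no such peak in either list, 162 had at least 1 in control and 133 at least 1 in Taf4-inactivated enteroids. Among the 4789 regions of 2 to 4 peaks these numbers were 3270, 1041 and 715. Such counts depend on the number of peaks in a region, so nothing particular to clusters can be read from them. Start site peaks, which the rule leaves out, numbered 85 in the control and 91 in the Taf4-inactivated list. Those of control lay in 73 clusters, and some of the other list lay in clusters without one of control.

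The largest excess of control peaks was at Cul9 (chr17:46647771-46713657), which encodes a cullin family protein, with 13 control and 8 Taf4-inactivated peaks. Of these control peaks 5 had no partner. The start of Srf, which encodes serum response factor, lay inside the same span. Gm9846 followed with 10 and 6 peaks and Arf1, which encodes a small GTPase of Golgi transport, with 9 and 5. The Arf1 cluster overlapped the body of Wnt3a, a Wnt ligand gene, and its 5 shared peaks were all wider in control. In the opposite direction, Aqp3 (chr4:41025241-41066113), which encodes a water and glycerol channel, had 6 control and 9 Taf4-inactivated peaks, and Ifngr2, which encodes a chain of the interferon gamma receptor, 7 and 10. At both, control peaks nevertheless covered more, 7922 against 4324 bp at Aqp3 and 8123 against 5932 bp at Ifngr2. A single control peak of 2926 bp at Aqp3 overlapped 2 Taf4-inactivated peaks, so that more peaks there did not mean more covered length.

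Within the spans, control peaks covered 1652 kb (16.2% of the span) and Taf4-inactivated peaks 1340 kb (13.1%), a ratio of 1.23, against a ratio of 1.38 for the whole lists. Control covered more in 236 clusters (77.6%), beside 77.4% of all joined regions, and the median log2 ratio was 0.29 in clusters and 0.43 in all joined regions. The spans end at control peaks, which cuts the peaks of the other list at the edges. With whole peaks counted instead, the lengths were 1652 and 1399 kb, the ratio 1.18, and control was larger in 218 clusters (71.7%), against 56.5% of all joined regions and 62.3% of those with 2 to 4 peaks. The median log2 ratio was then 0.22 in clusters, 0.20 in regions of 2 to 4 peaks and 0.11 in all. The summed lengths of clusters and of 2 to 4 peak regions stood in the same ratio, 1.18.

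**Figure D2:**
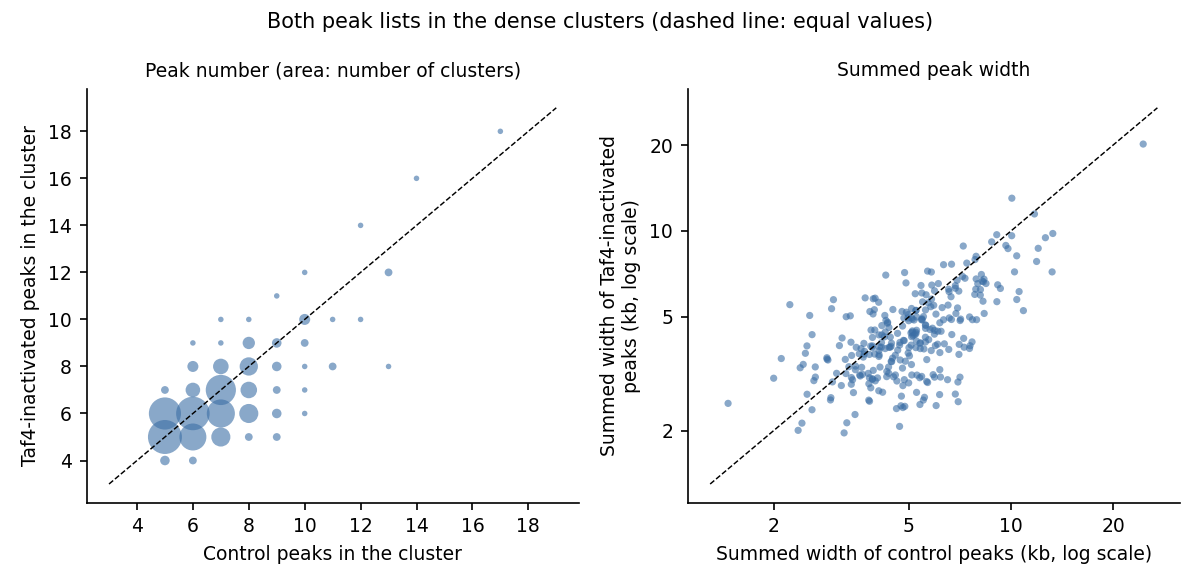
Each dense cluster in both lists: left, number of control peaks (x axis) against Taf4-inactivated peaks (y axis), with the area of a point showing the number of clusters; right, summed whole width of the peaks in kb on log scales. The dashed line marks equal values; 112 clusters lie on the control side of it by number and 218 by summed width.

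The highest log2 ratios of covered length were found at Gm4793 (1.58, from 6992 control and 2337 Taf4-inactivated bp), a cluster wholly inside Nav1, at Abcd4 (1.47), which encodes an ABC transporter, and at Gm7292 (1.38). All 5 shared peaks of the Abcd4 cluster were wider in control. Counted within the spans, the lowest were at Sulf2 (-0.92), which encodes a heparan sulfate sulfatase, with 3000 control and 5673 Taf4-inactivated bp, at Srsf5 (-0.84), which encodes a splicing factor, and at Myo10 (-0.74), which encodes a myosin of filopodia. Of the shared peaks, 5 of 5 at Srsf5 and 6 of 6 at Myo10 were narrower in control. These were not all separate pairs, since the 5 at Srsf5 had 3 partners and the 6 at Myo10 had 5. A Taf4-inactivated peak that overlapped several control peaks was compared with each of them. With peaks counted whole past the edges of the spans, Agap1 (-1.31, from 2232 and 5522 bp) and Mapk6 (-0.99, from 2554 and 5061 bp), both named after their values were seen, stood below Sulf2 (-0.94). In that count control was longer in 218 clusters in place of 236, and all 18 that turned went to longer in Taf4-inactivated enteroids. In 12 clusters (3.95%) every shared peak was wider in control and in 8 (2.63%) every one was narrower. Such counts depend on the number of peaks in a region. The same shares were not computed for other joined regions, so nothing particular to clusters can be read from them.

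The 2054 control peaks had a median of 654.5 bp and the 1968 Taf4-inactivated peaks 556.5 bp, beside 584 and 530 bp for the whole lists. The 1738 shared distal peaks of clusters had a median width of 679.5 bp, against 629 bp for the other shared distal peaks and 1058 bp for shared start site peaks. Of the cluster peaks 932 (53.6%) were wider than their partners together, beside 54.5% of all shared distal peaks. Several partners were found for 23 cluster peaks (1.32%) and for 0.822% of the others.

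The fold enrichment, which the authors' caller gave for each peak over the background of its own library, was ranked within each list. Cluster peaks stood at a median percentile of 53.6 and the other shared distal peaks at 58.9, while shared start site peaks stood at 84.2 and distal peaks without a partner at 39.1. The top 10% of the control list by fold held 193 cluster peaks (11.1%, interval 9.67 to 12.7%) and 10.8% of the other shared distal peaks. The best partners of all cluster peaks, whatever their rank, stood at a median percentile of 57.0 of the Taf4-inactivated list. Those of other shared distal peaks stood at 52.1. Of the 193 cluster peaks in the top 10%, 81 (42.0%) had a partner in the top 10% as well. The same share was not computed for other shared distal peaks, so nothing particular to clusters can be read from it.

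**Figure D3:**
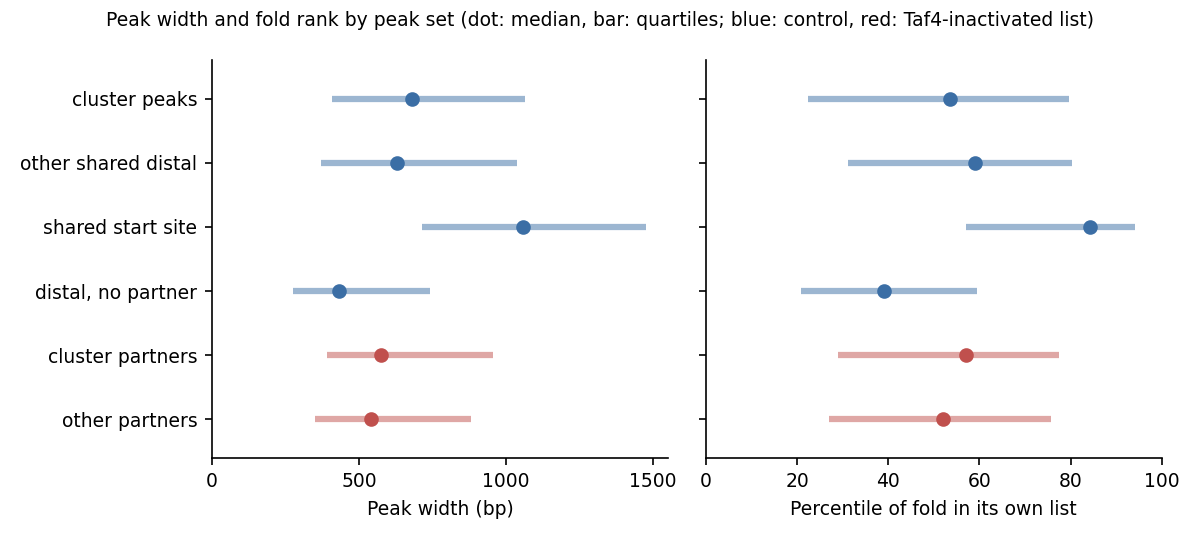
Width in bp (left) and percentile of fold within the list (right) by peak set; dots are medians and bars run from the lower to the upper quartile, blue for control peaks and red for Taf4-inactivated partners. Cluster peaks overlap the other shared distal peaks over most of the range, while shared start site peaks are wider (median 1058 bp) and rank higher (median 84.2).

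By cluster, 124 of 304 had at least 1 control peak in the top 10% and 100 had a partner in the top 10% of the other list, with 79 having both and 159 neither. Such a count grows with the number of peaks in a region: a control peak in the top 10% was found in 28.3% of the joined regions with 4 shared distal peaks and in 38.4% of the clusters with 5. The Rnf43 cluster (chr11:87494216-87524325), inside a gene encoding a ubiquitin ligase that removes Wnt receptors and with its shared peaks in introns, had 5 of 5 shared peaks in the top 10% of control and folds from 2.72 to 3.74. Of their partners 2 were in the top 10% of the Taf4-inactivated list. At the other end, 1 cluster had every peak in the lowest 1% of the control list. It lay inside Sfi1 (chr11:3052403-3063103) and was also the densest, at 5.61 shared peaks per 10 kb, with folds of 1.34 to 1.46. Its 7 control and 5 Taf4-inactivated peaks covered 3618 and 3857 bp. Next in density came Pisd (5.42 per 10 kb), which encodes a mitochondrial phospholipid enzyme, and Gm2964 (3.46 per 10 kb), the latter with copies of all 5 peaks.

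The clusters had 296 distinct nearest coding genes. In 100 clusters a coding start lay inside the span, 63 clusters lay wholly inside 1 gene, 117 overlapped a gene in part and 124 touched no coding gene. The nearest start was over 50 kb beyond the edge in 28. Of the cluster peaks 34.1% were intronic, 5.98% exonic and 59.9% outside coding genes, against 40.2, 6.996 and 52.8% for the other shared distal peaks. The share outside genes was 53.3% over all shared distal peaks, and its intervals in the 2 sets were 57.5 to 62.2% and 52.2 to 53.4%. These intervals treat each peak as separate, while neighbouring peaks of a cluster share their surroundings. They are therefore too narrow for clusters, and the difference was not tested. In addition to Ets2, the genes nearest to 2 clusters each were 0610010O12Rik, Azin1, C130026I21Rik, Dagla, Prr5, Tomm20 and Zmiz1.

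The nearest genes had open promoters more often than coding genes at large. A start site peak in both lists was found for 246 of the 296 (83.1%, interval 78.3 to 87.2%), beside 62.7% of the 22380 coding genes. A peak in control alone was found for 14 and in Taf4-inactivated enteroids alone for 5. Start site peaks were not used by the rule, and no comparison with genes in surroundings of like peak density was made. Among the 16 clusters of 8 or more peaks the number was 11 of 16 genes (68.8%).

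Counting genes that were nearest or had a start inside, 313 coding genes (1.40%) were linked to a cluster. The gene lists, chosen with earlier results of these data known, were small, and the counts describe them only. In the epithelial junction and cytoskeleton list 5 of 30 genes were linked, namely Krt8 and Krt18, the keratin pair of simple epithelia, Cldn4, a tight junction claudin, Cdh17, a cadherin of the intestine, and Tjp1, a tight junction scaffold. At Krt8 (chr15:101806179-101826776) there were 7 control and 5 Taf4-inactivated peaks over 5412 and 4059 bp, and at Krt18 (chr15:101864634-101896691) 7 and 6 over 3798 and 3149 bp. At Krt8 a single Taf4-inactivated peak of 1858 bp overlapped 2 control peaks of 352 and 572 bp. Cldn4, Cdh17 and Tjp1 had equal numbers, 6 peaks in each list, with log2 ratios of covered length of -0.02, 0.07 and 0.05. With whole peaks the Tjp1 lengths were 4837 and 4957 bp, which turned the order. The Tjp1 cluster lay 113191 bp from the nearest start of that gene.

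Of 40 annotated intestinal transcription factor genes 3 were linked. Elf3 (chr1:137095367-137134226), an epithelial ETS factor, had 7 control and 8 Taf4-inactivated peaks over 5955 and 6176 bp, and 4 of its 7 shared peaks were in the top 10% of control, among them the one with the printed CDX and TCF sequences, at percentile 98.99. The partner of that peak stood at percentile 98.3. Ppara, a nuclear receptor for fatty acids, had 7 and 7 peaks over 10569 and 5762 bp, and Vdr, the vitamin D receptor, 6 and 5 over 3984 and 2838 bp. The Ppara cluster lay 48037 bp from the nearest start of that gene and touched no coding gene. The factors Cdx2 and Hnf4a were not near a cluster. Cdx2 had 4 shared distal peaks within 50 kb of the gene in 2 joined regions, and Hnf4a had 11 in 6 joined regions, the largest of 3 peaks, so that these peaks did not form a dense group.

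Among 33 stem cell and Wnt genes 2 were linked, Rnf43, with 5 control and 6 Taf4-inactivated peaks over 5464 and 6066 bp, and Hes1 (chr16:30024685-30056308), a transcriptional repressor downstream of Notch, with 8 and 8 peaks over 4794 and 3931 bp. With peaks counted whole past the span's edges, the Hes1 lengths were 4794 and 4647 bp, so most of that difference came from the cut. The strongest Hes1 peak, whose AP-1 sequence is printed above, measured 802 bp at percentile 92.1 in control and its partner 279 bp at percentile 61.9. The stem cell genes Lgr5 and Olfm4 and the Wnt target Axin2 were not near a cluster. Within 50 kb Lgr5 had 4 control and 4 Taf4-inactivated peaks in its joined regions, Olfm4 2 and 3, and Axin2 11 and 9. The largest joined region at Axin2, with 4 shared peaks, was 1 peak short of the rule.

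Of 25 enterocyte genes 2 were linked. Fabp6, which encodes the ileal bile acid binding protein, had 11 control and 8 Taf4-inactivated peaks over 4980 and 3700 bp. Anpep, which encodes a brush border aminopeptidase, had 8 and 5 over 6164 and 2584 bp, a log2 ratio of 1.25. The Anpep cluster lay 9509 bp from the nearest start of that gene and overlapped the body of Ap3s2. Among 22 secretory genes, Spink4, a goblet cell gene, was linked, with 7 and 7 peaks over 6225 and 4400 bp. The AP-1 and KLF list gave 2 of 20, Maff with 7 and 5 peaks over 5683 and 2633 bp and Fosb with 7 and 7 over 5450 and 4432 bp. No gene was linked among 21 annotated EGF receptor and YAP related genes and 26 TFIID and PRC2 genes. In the 15 clusters of all lists together there were 105 control and 95 Taf4-inactivated peaks, with more control peaks in 6, equal numbers in 7 and fewer in 2, and control covered more in 12 of the 15, or in 11 with whole peaks. The median log2 ratio of covered length over these 15 was 0.30, beside 0.29 over all clusters.

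The recognition sequences searched, on both strands of 300 bp windows around peak centres, were TGACTCA for AP-1, AGATAA for GATA, CAAAGTCCA for HNF4, TTTATGG for CDX, TGTTTAC for FOXA, CTTTGAT for TCF, ACATTCC for TEAD, and GGGTGTGG or GGGCGTGG for KLF. AP-1 was found in 11.2% of cluster peaks (interval 9.72 to 12.7%) and 10.4% of the other shared distal peaks, and its letters in reverse order in 5.01 and 5.68%. The sequence thus stood above its reversed form in both sets, while the intervals of the sets overlapped. GATA matched 13.3 and 13.3%, HNF4 1.496 and 1.358%, CDX 3.57 and 3.64%, FOXA 4.14 and 4.40%, TCF 4.49 and 4.42% and TEAD 4.83 and 4.32%. Reversed letters matched 8.98 and 8.67% for GATA, 0.345 and 0.270% for HNF4, 2.93 and 2.54% for CDX, 2.19 and 2.17% for TCF and 3.34 and 3.34% for TEAD. For FOXA they matched 4.20 and 4.09%, about as often as the sequence itself. KLF matched 8.69% (interval 7.41 to 10.1%) and 7.38% (7.07 to 7.71%), and the intervals overlapped as well, with 4.14 and 4.54% for its reversed letters. The median GC content of the windows was 53.0% in clusters and 52.3% elsewhere.

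**Figure D4:**
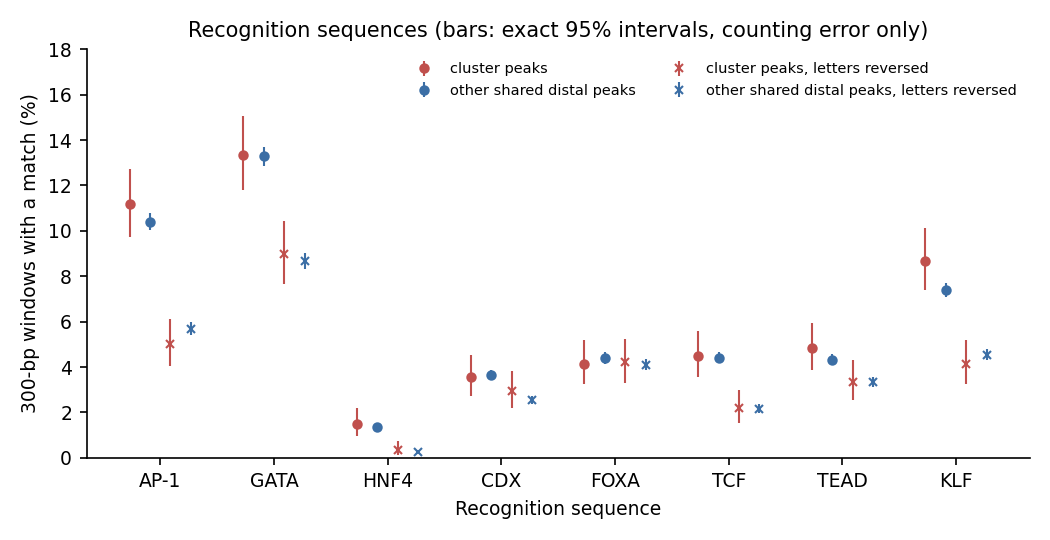
Percentage of 300 bp windows (y axis) with each recognition sequence (x axis) in cluster peaks (red) and other shared distal peaks (blue); circles, the sequence itself, crosses, its letters reversed; bars are exact 95% intervals for counting error. The intervals of red and blue circles overlap for every sequence, for example at 11.2 and 10.4% for AP-1.

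By cluster, an AP-1 match was found in at least 1 window of 148 of the 304 and in 2 or more windows of 37. Since each cluster holds 5 windows or more, the reversed letters also matched in many, 74 clusters for AP-1 with 12 in 2 or more windows. GATA was found in 162 clusters (reversed 124), KLF in 120 (63), TEAD in 74 (57), TCF in 68 (36), FOXA in 68 (65), CDX in 53 (47) and HNF4 in 24 (6). The Rhpn2 cluster had AP-1 in 4 of its 10 windows, the most of any cluster, and Heg1 had it in 3 of 9.

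The rule was also run the other way around. Taf4-inactivated peaks overlapping a control peak gave 296 dense clusters under the same distances, and 266 of the 304 clusters (87.5%) overlapped 266 of these (89.9%). In the spans so defined there were 1978 control and 1931 Taf4-inactivated peaks, and control covered 1552 and Taf4-inactivated 1360 kb, so that control was higher in both measures whichever list set the edges.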

How the data were processed

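The peak lists from ATAC-seq were used, 1 from control and 1 from Taf4-inactivated enteroids, grouped by the labels. Per the labels and the study's methods, the authors demultiplexed reads with bcl2fastq 2.17.1.14, kept those mapping uniquely to mm9 with Bowtie 1.0.0 and ran MACS2 2.1.1 for broad peaks, library by library. The deposited values are a score per peak (the −log10 q times 10 without its decimals), the fold over each library's own background, and the −log10 of p and q. The score was not used further, and fold was ranked within a list only.

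Positions were made 1-based, and none passed a chromosome end of NCBIM37 (mm9). The 86992 annotated transcript starts and 22380 coding genes came from GENCODE vM1. Distance was measured from the nearer peak edge, and the nearest gene is the coding gene with a start inside the span nearest its centre or otherwise nearest an edge. Base pairs are counted under any peak that overlaps a span, cut at its edges. Copies were searched with minimap2 2.31 in the reference, and sequences were read from it. Python 3.11.15, numpy 2.4.6, pandas 2.3.3, scipy 1.17.1 and matplotlib 3.10.9 were used. The background level was solved from 9158 control and 7185 Taf4-inactivated peaks. The joining rule, covered length and depth estimate were checked on simulated data. The depth check inverted the same formula at fixed backgrounds, so it does not show how well the estimate holds for broad peaks.

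The clusters, gene lists and alternatives were chosen with earlier results of these data known. Named clusters were the 10 with the most peaks, the 3 with the largest and the 3 with the smallest difference in peak number, the 3 highest and the 3 lowest ratios of covered length, the 3 densest, those nearest to a listed gene, and Lgr5, Olfm4, Axin2, Cdx2 and Hnf4a in any case. Taf8, Srf, Wnt3a, Nav1, Ap3s2, Agap1, Mapk6, the second Ets2 cluster, the genes nearest to 2 clusters and those of copied peaks were named after their values were seen. No test was made, since there was 1 library per genotype. Read totals were not used here, so depth is known only as the estimate from fold and p.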

Additional observations from a re-analysis of the deposited data

How the results depend on the processing

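Peak number was the least stable result. The difference of 86 peaks between control and Taf4-inactivated enteroids became 0 with a join distance of 5 kb, 925 with 25 kb, 171 with 4 or more peaks, -5 with 8 or more, 49 with start sites at 5 kb, -4 with an overlap of 50% of both peaks, -11 at −log10 q values from 2 upward, -25 with lists of equal length, 47 from the Taf4-inactivated list and 40 with peaks of at least 300 bp. The difference in covered length, 311.82 kb, kept its direction and became 17.7, 1831, 649.9, 20.0, 179.7, 10.01, 39.9, 146.1, 191.9 and 150.8 kb in the same order. Except in the setting built from the Taf4-inactivated list, the spans ended at control peaks and the cut at the edges favoured control. With whole peaks the difference was 253.4 kb in the main setting. Whole peaks were not counted in the others, so the constant direction there was partly built in. The number of clusters, 304, became 16, 980, 693, 16, 175, 43, 62, 200 and 121 under these settings without the one built from the Taf4-inactivated list, and the share of shared distal peaks became 0.345, 24.6, 12.1, 0.557, 4.40, 1.59, 2.66, 4.77 and 3.37%. It was 6.89% with start sites of coding genes alone. The difference in median width, 98 bp, was 197 bp at a join distance of 5 kb and 39 bp with an overlap of 50%. The share of nearest genes with start site peaks was 68.8% with 8 or more peaks. The AP-1 difference of 0.77 percentage points was -0.68 with the letters reversed. Of 75 alternative values 32 counted as the same, 38 as moved and 5 as reversed. The same meant within 1.5 times the reported number or difference, or within the interval of the reported share. For the AP-1 difference it meant a change smaller than the margin of the interval for cluster peaks. No peaks of 1 list lay within 500 bp of each other, so merging them changed nothing. Leaving out the 6 clusters with copied peaks and counting whole peaks, both chosen after the data were seen, left control higher in summed length. Whole peaks turned the direction in 18 single clusters, Rhpn2, Tjp1 and Cpt1a among them. No library could be left out. No paired analysis was possible because each genotype had 1 library.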

Other observations

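Other genes beside the clusters were read after their values had been seen, and they are given as values only. Odc1, which encodes the rate-limiting decarboxylase of polyamine synthesis, had 7 peaks in each list over 10881 control and 5262 Taf4-inactivated bp, and Azin1, which encodes an inhibitor of antizyme, was nearest to 2 clusters on chromosome 15. The Azin1 cluster closer to the gene had 8 and 7 peaks over 9090 and 5656 bp and the farther one 9 and 7 over 3871 and 4462 bp. Dgat2, which makes triglyceride, had 5 and 5 peaks over 5394 and 2468 bp, the lipoprotein receptor gene Scarb1 9 and 5 over 3828 and 3696 bp, and the acyl-CoA synthetase genes Acsl1 6 and 8 over 5491 and 5621 bp and Acsl5 7 and 8 over 4165 and 4567 bp. Cpt1a, for fatty acid import into mitochondria, had 8 and 9 peaks over 9082 and 8262 bp, but over 9082 and 9706 bp with peaks counted whole past the span's edges.

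At Errfi1, an inhibitor of EGF receptor signalling, Taf4-inactivated peaks covered 4924 bp and control peaks 3363 bp, with 5 peaks in each list, and at Ier5 the lengths were 5880 and 4278 bp with 5 and 6 peaks. Nfkbia, the inhibitor of NF-kappaB, had 7 and 7 peaks, with control longer (6271 and 4811 bp). The Ripk4 cluster (chr16:97952059-98011185), with 10 control and 9 Taf4-inactivated peaks, lay next to the Tmprss2 cluster, and each of the pair held at least 8 shared distal peaks.

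In 13 clusters 3 or more shared peaks were in the top 10% of control by fold, among them Rnf43, Elf3, Heg1, Phlda1 and Chd2. The same count was not made for other joined regions, so it describes the clusters only. At Chd2, which encodes a chromatin remodeller, 3 of the 5 control peaks and 4 of the partners were in the top 10% of their lists. At C130026I21Rik, where every peak had a copy elsewhere in the reference, 7 of 12 control peaks were in the top 10% and none of the partners.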
